A study of Drosophila melanogaster with 6 samples.

Results

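The genes described here encode the ligands and receptors of 2 fly receptor tyrosine kinase systems, together with a protease that releases one of the ligands. The EGF side comprised the ligands vn, spi and Krn, the receptor Egfr and the rhomboid protease rho. The side related to vertebrate PDGF and VEGF comprised the ligands Pvf1, Pvf2 and Pvf3 and their receptor Pvr. The members were the 9 rows of the deposited gene tables with these names, of 17609 genes in all. Reads were counted for 7 of them, and Krn and rho were listed at 0 in all 6 libraries.

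RNA was measured in adult Drosophila melanogaster 10 days after eclosion. In one genotype Act88F-Gal4, a driver whose activity is known from the indirect flight muscles, was combined with a UAS hairpin against foxo, a transcription factor held in check by insulin signalling. The control genotype carried the same driver crossed to w1118, so both genotypes carried Act88F-Gal4. Thorax (labelled skeletal muscle), gut, and carcass (labelled fat body, dissected without eggs and intestine) were each sequenced once per genotype, which gave 6 libraries. Per the protocol, all flies had been moved to a sugar and yeast diet 2 to 3 days after eclosion and kept on it for 10 days, which places them past the stated age of 10 days, and the labels do not resolve this. In addition, the labels give no sex and no number of flies per library. The title of the series asks how muscle directs energy homeostasis through a secreted factor. The values below show what a flight-muscle foxo hairpin was accompanied by in the genes of 2 growth factor systems, and how these genes differed between tissues.

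Egfr is activated by secreted ligands. Spi is made as a membrane-bound precursor that is released after trafficking and cleavage by rhomboid proteases, Krn is a close relative of spi, and vn is secreted without that cleavage. In the adult gut, vn from visceral muscle, together with spi and Krn, supports proliferation of intestinal stem cells through Ras and MAPK signalling. Pvr responds to the Pvf ligands and signals through the same Ras and MAPK relay and through a Rac branch, and it is known for its roles in blood cell survival and migration, in border cell guidance and in the gut.

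The libraries held between 13274574 and 34385727 counted reads, the deepest being foxo RNAi thorax. The targeted gene foxo had a ratio of foxo RNAi to control of 0.717 (95% counting interval 0.686 to 0.749) in thorax, 0.783 (0.719 to 0.852) in gut and 0.764 (0.708 to 0.823) in carcass. In gut the interval of foxo reached 1 when reads were scaled by total count (0.921, 0.846 to 1.00). Enterocyte and photoreceptor markers set libraries apart. The summed level of 9 enterocyte markers with reads was 114 CPM (read counts after TMM scaling to a common library size) in control thorax and 1665 CPM in foxo RNAi thorax, against 110732 and 78288 CPM in the gut libraries. Of these markers, 8 of 9 were called higher in foxo RNAi thorax. The summed level of 7 photoreceptor markers was 1055 CPM in control carcass and 75.4 CPM in foxo RNAi carcass, with 6 of 7 called lower, and the 11 fat body markers summed to 25988 and 11049 CPM in these libraries, with 5 of 8 compared called lower. Striated muscle markers were highest in the thorax libraries, at 48336 and 40466 CPM, and enterocyte markers in the gut libraries. Flight muscle markers summed to 9806 CPM in control thorax and 4546 CPM in foxo RNAi thorax, with 1 of 5 called lower. Most of each sum was Act88F, at 7265 and 2394 CPM. Strn-Mlck (2345 and 1935) and salm (105 and 96.4) were also lower, whereas TpnC41C (76.3 and 102) and fln (15.8 and 18.3) were higher. In these bulk samples, fewer cells of a type and less RNA per cell cannot be told apart.

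Krn and rho could not be measured. Krn (FBgn0052179, chromosome 3L, 17649562 to 17654280, minus strand, Release 6) lies wholly inside Ndfip, which held between 860 and 2577 reads per library. The gene rho (FBgn0004635, 3L, 1463811 to 1468944, plus strand) lies wholly inside Ptp61F, which held between 951 and 2490 reads. Of 1561 coding genes that lie wholly inside another coding gene, 0 had counts, whereas counts were present for 92.2% of 4127 coding genes with a partial overlap and for 90.2% of 8185 without any overlap. The zeros of Krn and rho were therefore taken as not measured, and no floor or fold was computed for them. The same position left 4 of 37 pathway genes without a value: ru, a second rhomboid protease, ksr, a scaffold of the MAPK relay, Rac2, and aos, a secreted Egfr inhibitor.

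Of the EGF ligands, vn was highest in thorax, and spi was about as high in gut as in thorax. The gene vn (FBgn0003984, 3L, 5813338 to 5845664, minus strand, 8 exons) had 54.7 CPM in control thorax, 5.23 in control gut and 6.46 in control carcass, and 60.9, 20.2 and 6.29 CPM in the foxo RNAi libraries of the same tissues. Both thorax libraries stood above the other 4, and foxo RNAi gut stood above control gut and both carcass libraries. In edgeR's quasi-likelihood test over the 6 libraries with Benjamini-Hochberg adjustment, vn was higher in thorax than in carcass by 3.17 ± 0.53 log2 units (SE, adjusted p = 0.00942). It was higher in thorax than in gut by 2.34 ± 0.52 (adjusted p = 0.0141), and gut and carcass differed by 0.83 ± 0.53 (adjusted p = 0.253). The size of the thorax and gut difference rested on the gut libraries, at 1.55 without control gut and 3.43 without foxo RNAi gut, both past the threshold. Without the foxo RNAi carcass library the difference between thorax and carcass missed the threshold (adjusted p = 0.0598).

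The gene spi (FBgn0005672, 2L, 19567900 to 19577315, minus strand), the main cleaved EGF ligand, had 65.3, 60.5 and 30.7 CPM in control thorax, gut and carcass and 69.7, 69.4 and 34.3 CPM in foxo RNAi. The 4 thorax and gut libraries lay between 60.5 and 69.7 CPM and both carcass libraries lay below them. In edgeR's test spi was higher than in carcass by 1.05 ± 0.18 log2 units in thorax (adjusted p = 0.00985) and by 1.00 ± 0.18 in gut (adjusted p = 0.00911). The gut difference was lost with total-count scaling (0.32, adjusted p = 0.197), with limma on the deposited RPKM at both pseudocounts (highest adjusted p 0.276) and without either gut library (highest adjusted p 0.109). Thorax and gut differed by 0.06 ± 0.18 (adjusted p = 0.800).

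The receptor Egfr (FBgn0003731, 2R, 21522420 to 21559977, plus strand) was lowest in gut. It had 172, 49.3 and 221 CPM in control thorax, gut and carcass, and 184, 47.2 and 134 CPM in foxo RNAi. Both gut libraries lay below all 4 others, and the thorax libraries lay between the 2 carcass libraries. By edgeR, Egfr was higher in thorax than in gut by 1.89 ± 0.27 log2 units (adjusted p = 0.00321) and lower in gut than in carcass by 1.85 ± 0.27 (log2 difference -1.85, adjusted p = 0.00465, but 0.0586 without control gut). With total-count scaling the gut to carcass difference was -2.53. Thorax and carcass differed by 0.03 ± 0.27 (adjusted p = 0.928). Its span also holds 4 coding genes, all listed at 0, so reads from them and from Egfr could not be separated.

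**Figure D1:**
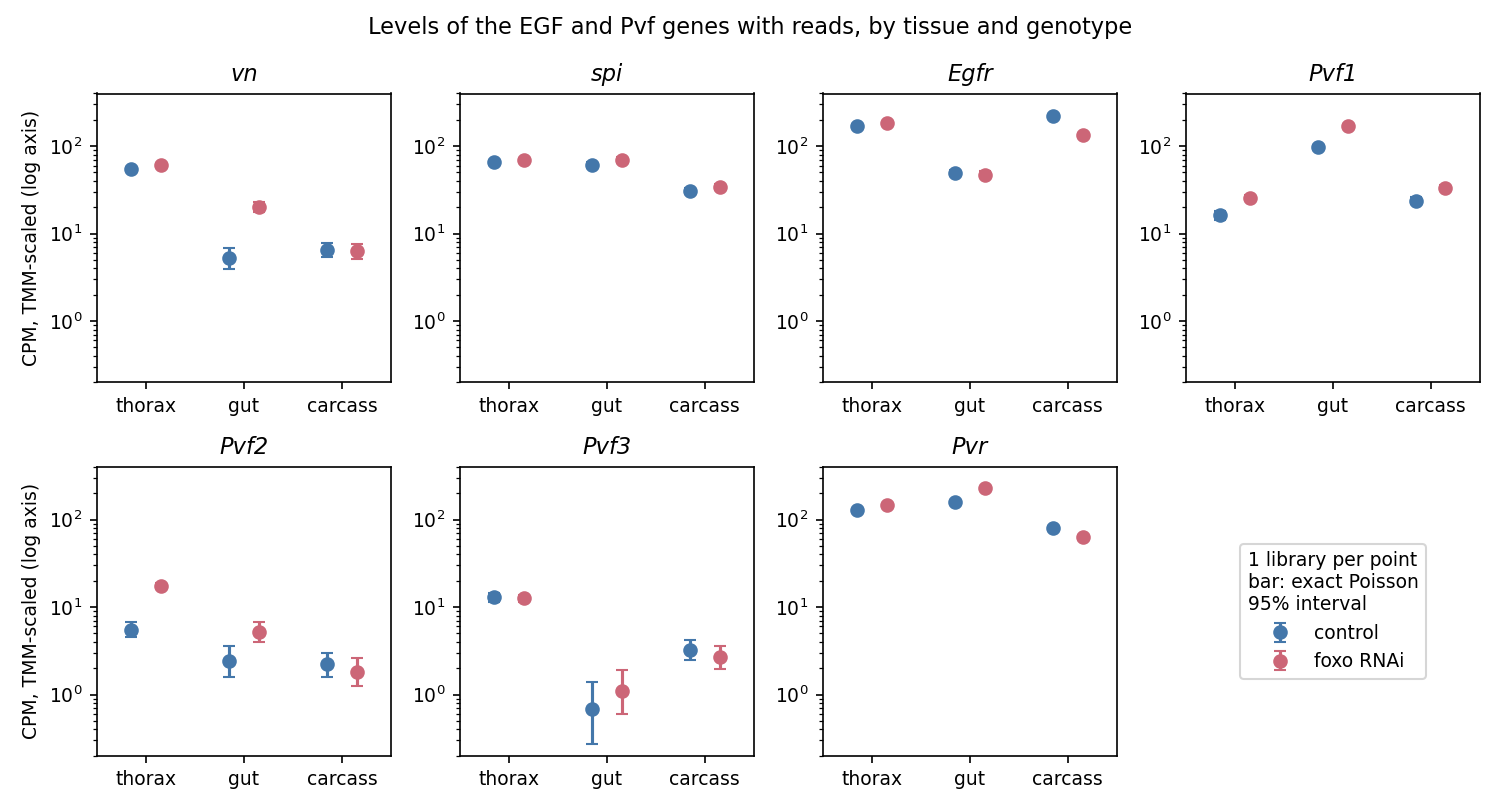
Level of each of the 7 genes with reads (vertical log axis, CPM after TMM scaling over 6 libraries) by tissue, with control in blue and foxo RNAi in red. Each point is 1 library and each bar its exact Poisson 95% interval, which is smaller than the point for many genes: vn was near 55 to 61 CPM in thorax, and Pvf1 reached 172 CPM in foxo RNAi gut.

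Of the Pvf ligands, Pvf1 was highest in gut and Pvf3 in thorax. Pvf1 (FBgn0030964, X, 18832682 to 18842901, plus strand), a ligand known from border cell guidance, had 16.2, 97.4 and 23.8 CPM in control thorax, gut and carcass and 25.7, 172 and 33.4 CPM in foxo RNAi. Both gut libraries lay above all 4 others, and the thorax and carcass ranges overlapped. By edgeR, Pvf1 was lower in thorax than in gut (log2 difference -2.67 ± 0.20, adjusted p = 0.000552) and higher in gut than in carcass by 2.20 ± 0.20 (adjusted p = 0.00106). Both calls held in 13 of 13 alternatives, though the gut to carcass difference was 1.53 with total-count scaling, and thorax and carcass differed by -0.47 ± 0.19 (adjusted p = 0.102).

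Pvf3 (FBgn0085407, 2L, 7098188 to 7157695, minus strand) had 12.9, 0.678 and 3.26 CPM in control thorax, gut and carcass and 12.6, 1.11 and 2.71 CPM in foxo RNAi. The gut values rest on 7 and 13 reads, and the tissues did not overlap, with thorax highest and gut lowest. In edgeR's test Pvf3 was higher in thorax than in gut by 3.81 ± 0.43 log2 units (adjusted p = 0.00141) and higher in thorax than in carcass by 2.09 ± 0.37 (adjusted p = 0.0109). It was lower in gut than in carcass (-1.72 ± 0.43, adjusted p = 0.0253). That last call was lost without control gut, control carcass or foxo RNAi gut (highest adjusted p 0.195), and the thorax and carcass call without control thorax (0.0537). With limma on log2(RPKM + 0.1), a scale that shrinks differences of genes with low RPKM, the 3 differences were 1.56, 1.03 and -0.52, and the last missed the threshold (adjusted p = 0.0766). With total-count scaling the gut to carcass difference was -2.39.

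Pvf2 (FBgn0031888, 2L, 7069536 to 7084635, minus strand), a ligand known from blood cells and gut stem cells, had 5.51, 2.42 and 2.21 CPM in control thorax, gut and carcass. In foxo RNAi it had 17.4, 5.21 and 1.82 CPM. Foxo RNAi thorax stood above the other 5 libraries, and control thorax and foxo RNAi gut were nearly level. By edgeR, Pvf2 was higher in thorax than in carcass by 2.26 ± 0.55 log2 units (adjusted p = 0.0265), but not without foxo RNAi thorax (1.63, adjusted p = 0.130) nor without either gut library or foxo RNAi carcass. Without control carcass that difference was 3.15 and without control thorax 2.88. The difference between thorax and gut was 1.51 ± 0.53 (adjusted p = 0.0592), and it passed the threshold in 6 of 13 alternatives, with adjusted p from 0.0173 to 0.439 over the 13. Those 6 were DESeq2, total-count scaling, limma on log2(RPKM + 0.1), and the fits without control thorax, control carcass or foxo RNAi carcass. Without foxo RNAi thorax it was 0.79. The end of Pvf2 overlaps CG11289, so its counts are uncertain where the genes share sequence.

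The receptor Pvr (FBgn0032006, 2L, 8220980 to 8239878, minus strand, 28 exons) had 128, 158 and 80.6 CPM in control thorax, gut and carcass and 149, 227 and 62.8 CPM in foxo RNAi. Both carcass libraries lay below all others, and both gut libraries lay above both thorax libraries. In edgeR's test Pvr was higher in gut than in carcass by 1.41 ± 0.27 log2 units (adjusted p = 0.0114) and in thorax than in carcass by 0.94 ± 0.27 (adjusted p = 0.0418). Both calls were lost with total-count scaling and with limma on the deposited RPKM at both pseudocounts. The first was also lost in 2 of the 6 fits that left out a library, and the second in 5 of the 6. Thorax and gut differed by -0.47 ± 0.27 (adjusted p = 0.190).

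In all, 4 of 7 genes were called between thorax and gut, where 54.6% of the 9293 genes tested were called (28.1% higher and 26.5% lower in thorax). Between thorax and carcass 5 of 7 were called, against 41.2% of all genes (21.9% higher and 19.3% lower in thorax). Between gut and carcass 5 of 7 were called, against 43.4% (20.7% higher and 22.8% lower in gut). The 7 genes therefore differed between tissues at a share close to or above that of all genes, and a count of 7 does not set them apart.

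**Figure D2:**
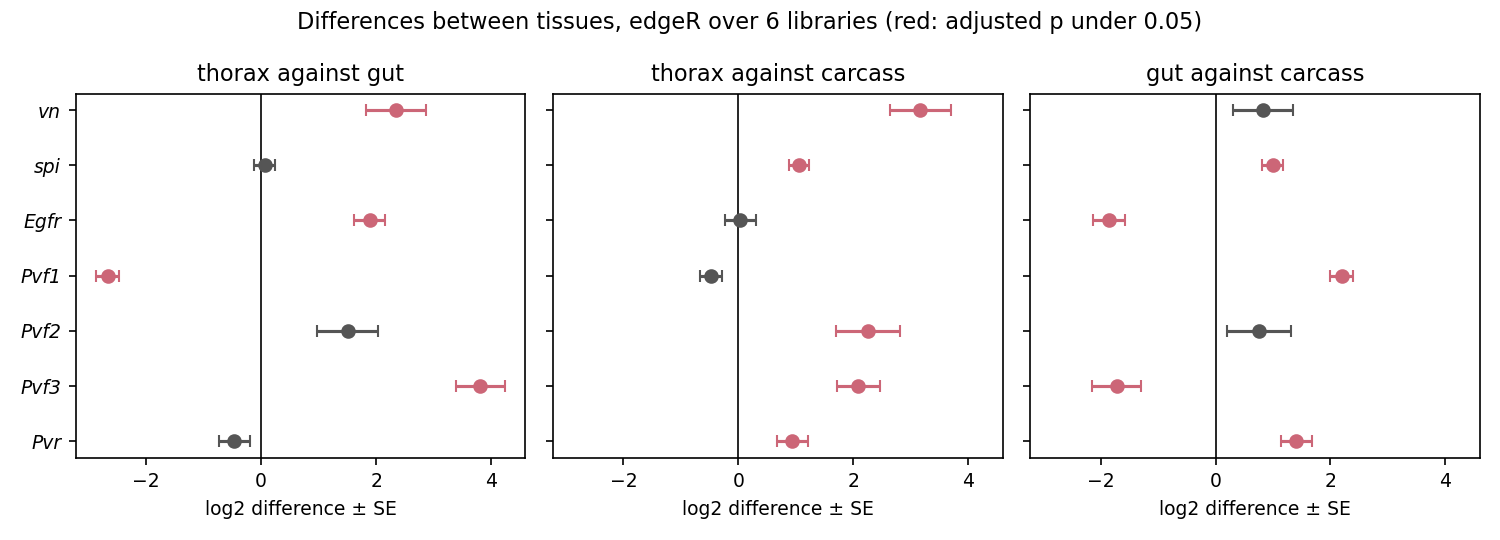
Difference between tissues (horizontal axis, log2 units, with the first tissue named higher to the right) for the 7 genes, from edgeR over 6 libraries with genotype as a covariate. Points are estimates and bars 1 SE, red where the adjusted p is under 0.05: Pvf3 in thorax against gut lies furthest right, at 3.81, and Pvf1 furthest left, at -2.67.

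Levels of different genes were compared per kilobase of exon. In both thorax libraries the order was spi, Egfr, Pvr, vn, Pvf1, Pvf2 and Pvf3, from 35.9 CPM per kb for spi to 2.07 for Pvf3 in the control. In both gut libraries Pvf1 came first, at 35.0 CPM per kb in control and 61.8 in foxo RNAi, followed by spi, at 33.3 and 38.2, and Pvr, at 23.8 and 34.1. In both carcass libraries Egfr came first, at 31.9 and 19.3 CPM per kb, and spi second, at 16.9 and 18.9. In control gut Pvf1 and spi, and in foxo RNAi carcass Egfr and spi, were close neighbours in that order. The deposited RPKM, which divides by the whole gene span with introns, put other genes first in some libraries, such as Pvr in foxo RNAi thorax at 8.68 RPKM against 8.15 for spi.

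The mix of ligands within a library does not depend on scaling. Reads of vn made up 45.6% of vn and spi reads in control thorax (exact 95% interval 43.5 to 47.7) and 46.6% (45.2 to 48.0) in foxo RNAi thorax. In gut the share was 7.96% (6.04 to 10.3) in control, from 54 of 678 reads, and 22.6% (20.1 to 25.2) in foxo RNAi, from 237 of 1049. In carcass it was 17.4% (14.6 to 20.5) and 15.5% (12.9 to 18.4). The genotypes thus had intervals that overlapped in thorax and carcass and lay apart in gut, as far as counting error goes.

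Pvf1 made up nearly all Pvf reads in gut, 96.9% in control and 96.5% in foxo RNAi, and most in carcass, 81.3% and 88.1%. In thorax it made up 46.7% and 46.2%. The rest of the thorax mix differed between genotypes: Pvf2 held 15.9% (13.2 to 19.0) in control and 31.2% (29.2 to 33.2) in foxo RNAi. Pvf3 held 37.3% (33.6 to 41.2) and 22.6% (20.9 to 24.5).

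**Figure D3:**
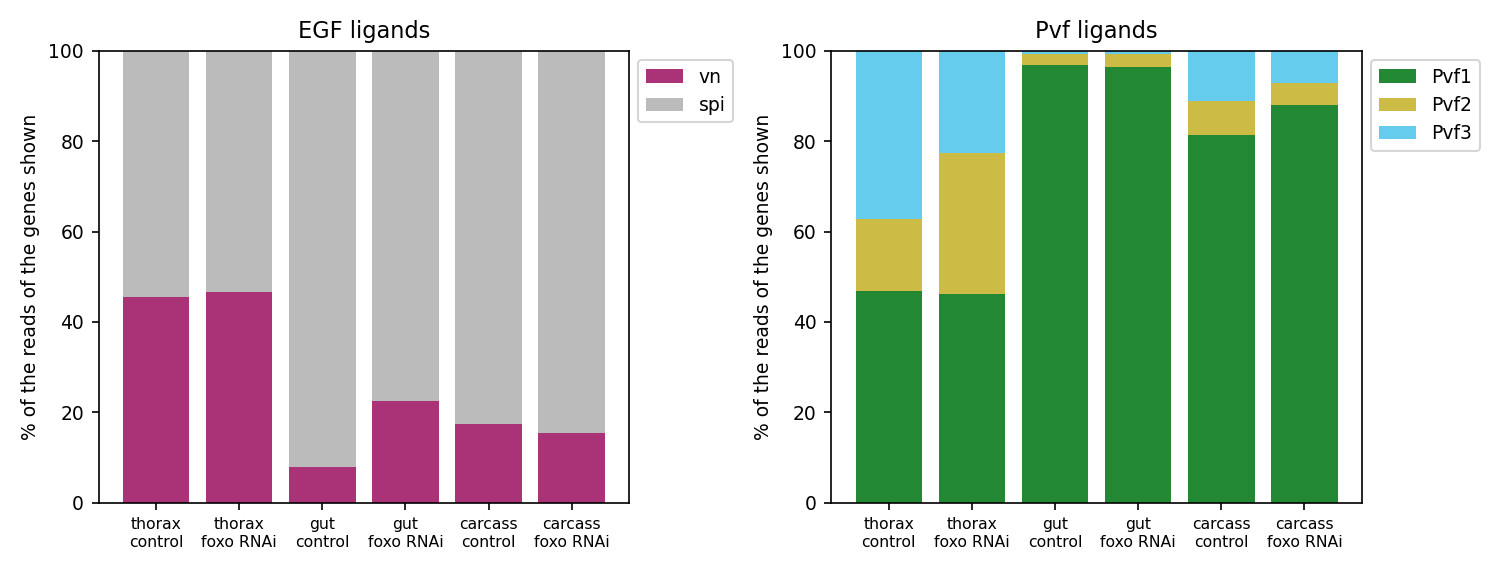
Share of reads held by each ligand in each library (vertical axis, percent), for vn and spi at left and for Pvf1, Pvf2 and Pvf3 at right, with 1 stacked bar per library. The vn share in gut is 7.96% in control and 22.6% in foxo RNAi, and Pvf1 fills over 96% of the Pvf bar in both gut libraries.

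Receptor reads gave a second scale-free view. There were 1.34 Egfr reads per Pvr read in control thorax and 1.23 in foxo RNAi thorax, 0.311 and 0.208 in gut, and 2.75 and 2.13 in carcass. Egfr thus exceeded Pvr in reads in thorax and carcass, and Pvr exceeded Egfr in gut. Reads of vn and spi together per Egfr read were 0.698 and 0.711 in thorax, 1.33 and 1.90 in gut, and 0.168 and 0.303 in carcass. These read ratios do not allow for gene length. Per kilobase of exon they were 1.87 and 1.89 in thorax, 4.83 and 6.18 in gut, and 0.569 and 1.04 in carcass. Pvf reads per Pvr read were 0.270 and 0.373 in thorax, 0.634 and 0.785 in gut, and 0.363 and 0.604 in carcass. Per kilobase of exon these were 0.545 and 0.871 in thorax, 1.52 and 1.89 in gut, and 0.836 and 1.41 in carcass. Whether ligand or receptor was higher thus depended on the allowance for length in several libraries. Each ligand to receptor ratio was higher in foxo RNAi than in control in each tissue, with intervals that overlapped in thorax for Egfr.

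Between genotypes there was 1 library on each side, so each ratio below compares a pair of libraries, has no replicate check and carries counting error only. A gene was called on 3 conditions: 30 or more reads over both libraries, a ratio of 2-fold or more, and an interval whose bound nearer to 1 was 1.5-fold or more. In thorax 1 of 7 genes was called, Pvf2, against 6.28% of 8887 genes compared (3.56% higher and 2.72% lower). In gut 1 of 6 was called, vn, against 5.4% of 7866 genes (2.22% higher and 3.18% lower). In carcass 0 of 7 were called, against 13.6% of 8589 genes (3.41% higher and 10.2% lower). The ratios were scaled with TMM factors of the 2 libraries of each tissue, so they differ slightly from the ratio of the CPM values above.

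In gut, vn rested on 54 reads in control and 237 in foxo RNAi, and its ratio was 3.78 (2.82 to 5.22). The ratio in thorax, where the hairpin was driven, was 1.12 (1.04 to 1.20), and in carcass 0.959 (0.731 to 1.26). With total-count scaling the gut ratio was 4.45 (3.32 to 6.14). The summed level of 17 striated muscle markers, which visceral muscle also expresses, was 2287 CPM in control gut and 3292 CPM in foxo RNAi gut, 1.44-fold higher, with 2 of 17 called higher (bt and Act79B). The 5 visceral muscle factors summed to 14.3 and 18.6 CPM, with none of the 3 compared called, and 5 gut progenitor markers with reads summed to 177 and 218 CPM. Foxo RNAi gut also had higher sums of flight muscle (39.6 against 24.7 CPM), neuron (39.9 against 27.0) and tracheal markers (154 against 120). Enteroendocrine, haemocyte and photoreceptor sums were higher to a lesser degree. Sums of enterocyte (78288 against 110732), fat body (921 against 1377) and oenocyte markers (610 against 1159) were lower. So were those of tubule (294 against 475) and ovary markers (331 against 607). The part of all these markers in the vn ratio was not tested.

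The ratios of spi were close to 1 in every tissue: 1.07 (1.00 to 1.15) in thorax, 1.13 (1.02 to 1.26) in gut and 1.10 (0.979 to 1.24) in carcass. Egfr had ratios of 1.07 (1.03 to 1.12) in thorax and 0.943 (0.834 to 1.07) in gut. In carcass, Egfr had 4008 reads in control and 2280 in foxo RNAi, a ratio of 0.596 (0.566 to 0.628), which is 1.68-fold lower and short of the 2-fold threshold. Photoreceptor, neuron and fat body markers were also lower in that foxo RNAi library (75.4 against 1055, 32.6 against 116 and 11049 against 25988 CPM). So were enterocyte, enteroendocrine, oenocyte and flight muscle markers (128 against 587, 43.6 against 136, 5218 against 8896 and 65.5 against 129 CPM). Tubule, striated muscle and visceral muscle sums were lower too (376 against 491, 3902 against 4697 and 17.1 against 20.5 CPM). Gut progenitor and tracheal markers were higher (60.5 against 49.6 and 224 against 135 CPM). Ovary and eggshell markers summed to 17211 against 18830 CPM, with 4 of 8 called higher. The 13 haemocyte markers with reads summed to 2347 CPM in control and 2109 CPM in foxo RNAi, with 0 of 12 called. The part of all these markers in the Egfr ratio was not tested.

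Pvf1 had ratios with intervals above 1 in all 3 tissues, at 1.60 (1.40 to 1.82) in thorax, 1.74 (1.61 to 1.88) in gut and 1.38 (1.22 to 1.57) in carcass, each under 2-fold. The gut value passed the 2-fold threshold with total-count scaling, at 2.04 (1.89 to 2.21), and that scaling moved the median of all genes in gut by 0.24 log2 units. Pvf2 rested on 103 and 662 reads in thorax, with a ratio of 3.15 (2.57 to 3.94). In gut it rested on 25 and 61 reads, with a ratio of 2.09 (1.31 to 3.52) whose near bound missed 1.5-fold with TMM and passed it with total-count scaling (2.46, 1.54 to 4.14). Its carcass ratio was 0.815 (0.491 to 1.33). The thorax library with the higher Pvf2 level, 17.4 CPM, is also the one with 14.6-fold more enterocyte marker signal. The gut libraries had 2.42 and 5.21 CPM of Pvf2. In that thorax library haemocyte markers summed to 3566 against 2593 CPM in control, with 0 of 13 called. Fat body (15224 against 9879), oenocyte (3560 against 2997), tracheal (238 against 164), photoreceptor (105 against 72.2) and tubule sums (315 against 294) were higher. The sums of striated, flight and visceral muscle, gut progenitor, enteroendocrine, neuron and ovary markers were lower. The part of all these markers in the Pvf2 ratio was not tested. Pvf3 had ratios of 0.980 (0.839 to 1.15) in thorax and 0.819 (0.544 to 1.22) in carcass, and in gut its 20 reads fell under the minimum.

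Pvr had ratios of 1.17 (1.11 to 1.23) in thorax, 1.41 (1.33 to 1.50) in gut and 0.768 (0.709 to 0.831) in carcass. The counting interval lay wholly above 1 for 6 of 7 genes in thorax, where it did so for 30.33% of all genes, and for 5 of 6 in gut, against 23.39%. With total-count scaling these counts of 6 and 5 were the same, and the shares of all genes were 39.1% in thorax and 48.16% in gut. In carcass it lay above 1 for Pvf1 and below 1 for Egfr and Pvr, of 7, against 39.36% above and 33.93% below for all genes. With total-count scaling it also lay above 1 for spi, against 50.84% above. Total-count scaling put 3 ratios on the other side of 1 (Egfr in gut at 1.11, vn in carcass at 1.08 and Pvf3 in thorax at 1.04), and their intervals held 1 with either scaling. The median log2 ratio of the genes was 0.16 in thorax, 0.65 in gut and -0.29 in carcass, beside 0.00, -0.01 and 0.06 for all genes compared.

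**Figure D4:**
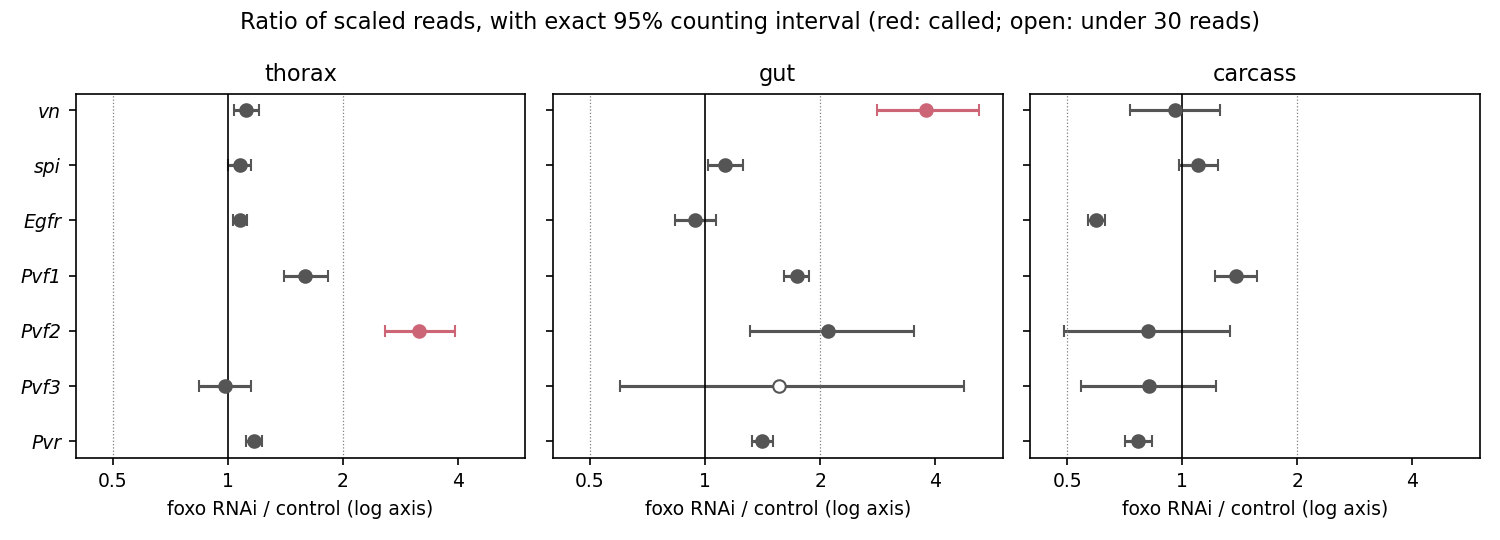
Ratio of foxo RNAi to control (horizontal log axis) for the 7 genes in thorax, gut and carcass, with exact 95% counting intervals as bars and dotted lines at 2-fold. Red marks called genes, vn in gut at 3.78 and Pvf2 in thorax at 3.15, and the open circle in gut is Pvf3, which has under 30 reads.

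The other genes of both pathways were taken from 4 lists with 37 genes, of which 33 had reads: proteins that process EGF ligands together with the germline ligand grk, the Ras and MAPK relay, the Rac branch, and feedback inhibitors with transcriptional outputs. Between genotypes 0 of 33 were called in thorax, 1 of 31 in gut and 2 of 33 in carcass, all higher, where 6.28, 5.4 and 13.6% of all genes were called. Higher calls alone made up 3.56, 2.22 and 3.41% of all genes. The relay had 0 of 12 called in each tissue, with median log2 ratios of 0.17 in thorax, 0.26 in gut and 0.29 in carcass, and the Rac branch 0 of 6, with medians of 0.07, 0.12 and 0.24. Ligand processing had 1 of 6 called in carcass and medians of 0.00, 0.40 and 0.25.

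Among feedback genes and outputs, edl, a regulator of the MAPK-responsive transcription factors pnt and aop, was called in gut. It had 15.3 CPM in control gut and 36.7 CPM in foxo RNAi gut, from 158 and 429 reads, and a ratio of 2.35 (1.96 to 2.85). In carcass its ratio was 0.700 (0.534 to 0.911). The median log2 ratio of this list in gut was 0.56 over 8 genes compared, beside -0.01 for all genes, and 0.80 beside 0.22 with total-count scaling. The interval lay above 1 for 5 of the 8 and below 1 for 1, Cbl, a ubiquitin ligase that removes active receptors, against 23.39% above and 26.25% below for all genes. With total-count scaling it lay above 1 for 6 of the 8 and below 1 for 0, against 48.16 and 12.43%. Chosen, like Cbl, after their values were seen, Ets21C, a stress-responsive ETS factor, had a gut ratio of 1.96 (1.70 to 2.26), the MAPK phosphatase Mkp3 1.71 (1.48 to 1.97), and sty, an inhibitor of receptor tyrosine kinase signalling, 1.47 (1.35 to 1.60). The Ets21C locus overlaps nAChRbeta3.

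In carcass, stet, a germline rhomboid protease, rested on 588 and 1130 reads with a ratio of 2.01 (1.82 to 2.23). The transmembrane Egfr inhibitor kek1 rested on 153 and 320 reads with a ratio of 2.19 (1.80 to 2.68). The 8 ovary and eggshell markers with reads in that tissue summed to 18830 CPM in control and 17211 in foxo RNAi, with 4 of 8 called higher. Most of each sum was Yp1, at 16115 and 10779 CPM. Each other marker was higher in foxo RNAi, such as Vm26Aa (820 and 2343 CPM), yl (857 and 1761), osk (434 and 753) and vas (46.0 and 105). The part of these markers in the stet ratio was not tested. The stet locus overlaps robl62A.

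**Figure D5:**
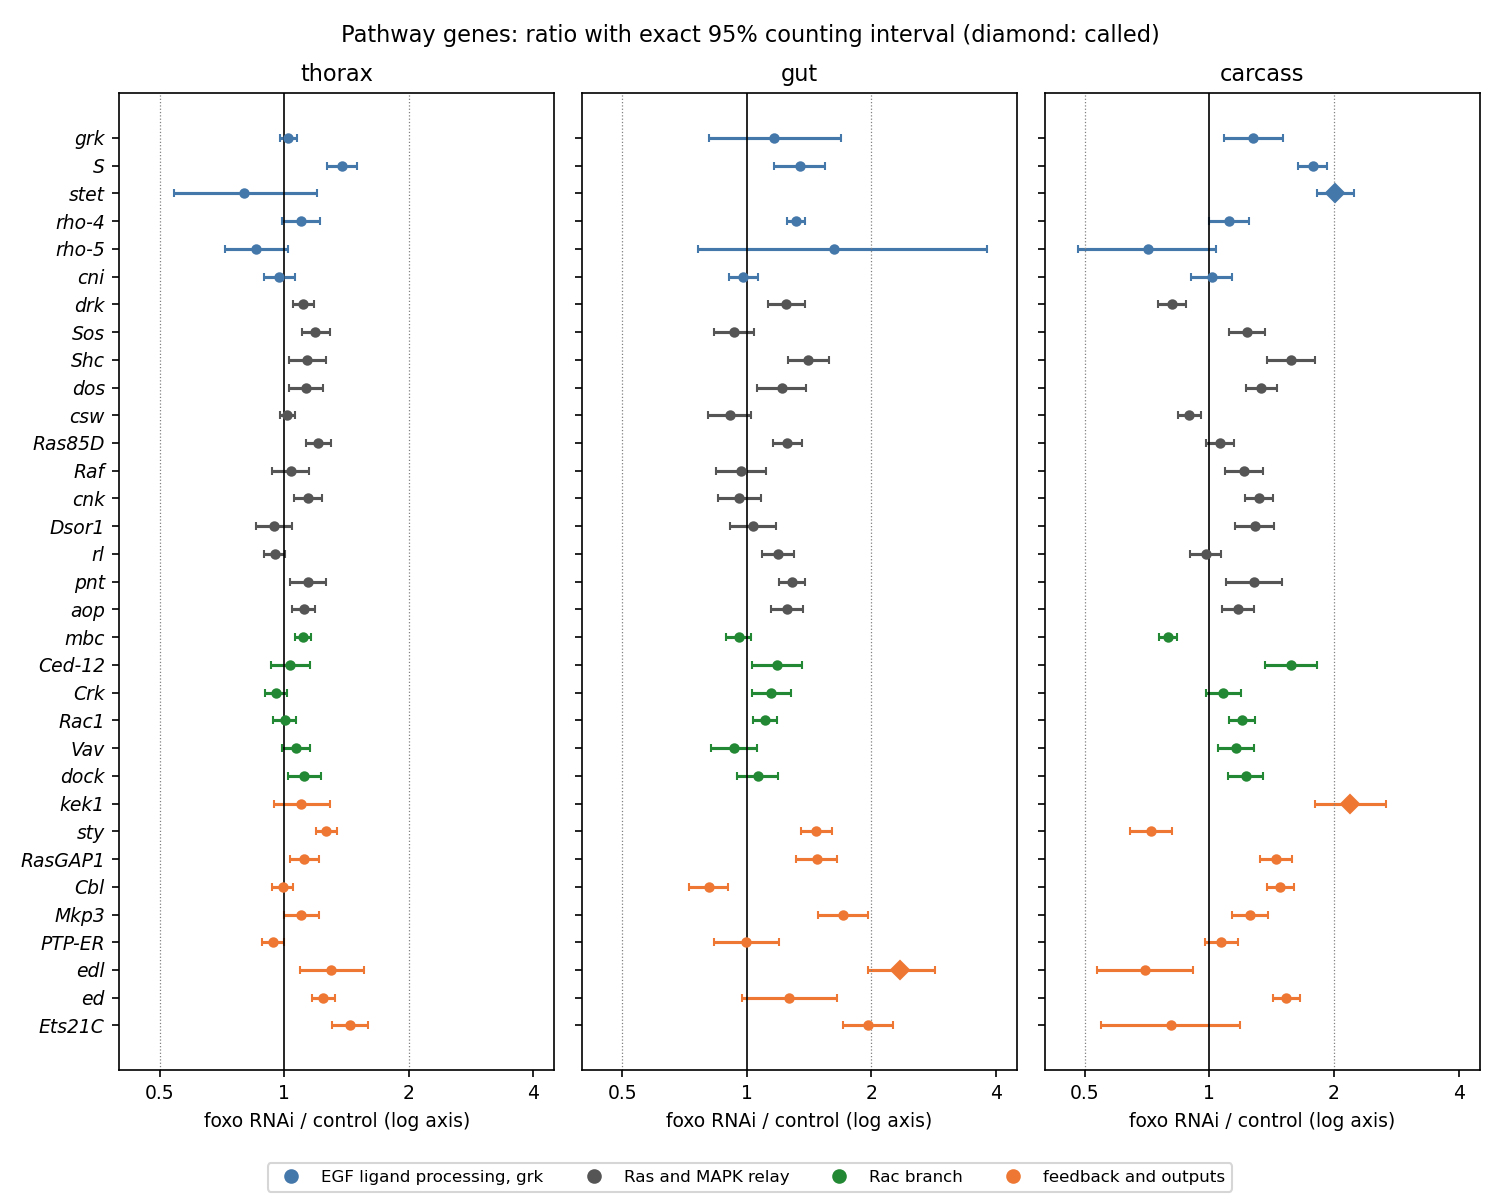
Ratio of foxo RNAi to control (horizontal log axis) for 33 further genes of the EGF and Pvf pathways with reads, by tissue, with exact 95% counting intervals as bars and colours for the 4 lists. Diamonds are called genes, edl in gut at 2.35 and stet and kek1 in carcass at 2.01 and 2.19, and genes with under 30 reads in a tissue are not drawn there.

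Between tissues, 6 pathway genes were higher and 7 lower in thorax than in gut, of 33 tested by edgeR, where 28.1% of all genes were higher and 26.5% lower. In thorax 7 of the 33 were higher and 2 lower than in carcass, against 21.9 and 19.3% of all genes. In gut 9 were higher and 8 lower than in carcass, against 20.7 and 22.8%. The germline EGF ligand grk was higher in thorax than in gut by 4.66 ± 0.23 log2 units (adjusted p = 0.000392) and than in carcass by 3.14 ± 0.21 (adjusted p = 0.00145), but its locus overlaps Akap200 and its counts are uncertain. The inhibitor kek1 was lowest in gut, by 4.56 ± 0.46 against thorax (edgeR, adjusted p = 0.00101), with a log2 difference of -4.48 ± 0.46 from carcass (adjusted p = 0.00146). Its level was only 0.484 CPM in control gut and 0.683 CPM in foxo RNAi gut, so the size of both differences rests on few reads. The ETS factor pnt, a nuclear target of MAPK, was 119 and 156 CPM in the gut libraries against 29.7 and 33.7 CPM in thorax (edgeR log2 difference -2.11 ± 0.19, adjusted p = 0.000767).

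The rhomboid family gene rho-4 had 254 and 339 CPM in gut against 26.8 and 29.3 CPM in thorax and 34.4 and 38.9 CPM in carcass, and it overlaps CG2533. By edgeR it was higher in gut than in carcass by 3.01 ± 0.21 log2 units (adjusted p = 0.000653), and its thorax to gut difference was -3.39 ± 0.21 (adjusted p = 0.000469). Ets21C was lowest in carcass, by 3.59 ± 0.37 against gut (edgeR, adjusted p = 0.00153) and 3.27 ± 0.37 against thorax (adjusted p = 0.00370). The protease stet was highest in carcass, at 32.5 and 66.5 CPM, against 2.30 and 1.84 CPM in thorax and 0.872 and 1.03 CPM in gut. Its edgeR log2 differences from carcass were -4.53 ± 0.42 for thorax (adjusted p = 0.00236) and -5.65 ± 0.47 for gut (adjusted p = 0.000866). Although carcass was dissected without eggs, ovary and eggshell markers were also higher there. By edgeR, 7 of 8 were lower in thorax and 8 of 8 lower in gut than in carcass. Vm26Aa had 820 and 2343 CPM in carcass, 0.214 and 0.236 in thorax, and 2.03 and 3.76 in gut. The part of these markers in the stet differences was not tested. The adaptor dos was lower in thorax than in carcass (edgeR, -0.75 ± 0.19, adjusted p = 0.0285), a call lost in 5 of the 6 fits that left out a library, with the exception of the one without control carcass.

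Across the 6 libraries, whose points share tissues and genotypes, Egfr and Pvf1 ran opposite to each other (Pearson r = -0.95 of log2 CPM, n = 6), spi and Pvr alike (0.89), and vn and Pvf2 alike (0.89). The genes with a symbol and a mean of at least 5 CPM whose profile was most like that of a member, of 4539 searched, were crol (r = 0.998), bru-3 (0.994) and Cyp6a20 (0.984) for vn. They were UBL3, EndoA and wkd for spi (0.989 to 0.995), Idgf4, SP2637 and Sox102F for Egfr (0.996 to 0.997), and tsr, Rok and Act42A for Pvf1 (0.995 to 0.997). For Pvf2 they were Ncc69, Rgk1 and RhoGAP102A (0.971 to 0.986), for Pvf3 RyR, wgn and if (each 0.998), and for Pvr Rap2l, flw and ND-MLRQ (0.992 to 0.996). With n = 6 and 4539 genes searched, high values of r are easily reached.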

How the data were processed

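The authors deposited, per gene and library, whole-number read counts without normalization and RPKM values, for which both the library total and the whole gene span with introns were divided out. Per the series design text, a stranded total RNA kit was used and single-end reads of 50 bases were aligned to fly genome Release 6. For the aligner, counter, annotation, strand setting and intron reads, the choice was not given in the sources used here. Fewer reads per library are stated in the design text than the deposited counts hold.

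From the counts, genotypes were compared per tissue without a test, with TMM factors (edgeR 4.0.16, R 4.3.3), 0.5 added to each count and exact Clopper-Pearson 95% intervals (scipy 1.17.1). Intervals cover counting error only, since there is 1 library per genotype and tissue. PCR copies are not independent molecules, so the intervals may be too narrow even for that error. A level of 3 counts is worth 0.0872 to 0.226 CPM per library before scaling. The comparison of tissues used the quasi-likelihood test of edgeR over 6 libraries, genes kept by filterByExpr, genotype as a covariate and Benjamini-Hochberg adjustment over 9293 genes at 0.05. The fit had 2 residual degrees of freedom and a common biological coefficient of variation of 0.296. Its p-values measure the spread left between the libraries of a tissue, which come from different genotypes. SE is the log2 difference divided by the root of the F statistic. Exon lengths came from Ensembl release 115, on the same assembly.

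The members, gene lists and tests were chosen with earlier results of these data known. Named were the members, pathway genes called between genotypes, per tissue contrast the 2 pathway genes with the largest called difference in each direction, and the 3 genes most like each member. Outside that rule, Cbl, Ets21C, Mkp3 and sty were named for gut genotype values after these were seen. Pathway genes without a value and some markers were named as well. Alternatives were DESeq2 1.42.0, other scalings, read minimums of 10 and 100, limma 3.58.1 on log2(RPKM + 0.1) and log2(RPKM + 0.01), and leaving out each library. Scripts were tested on simulated data. No gene, promoter or protein sequence was used here.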

Additional observations from a re-analysis of the deposited data

Results flagged for a closer look

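The ratios of both receptors lay on opposite sides of 1 in different tissues, each with a counting interval that excluded 1. For Egfr the ratio of foxo RNAi to control was 1.0742 in thorax and 0.5965 in carcass. For Pvr it was 1.1689 in thorax and 1.4111 in gut, and 0.7676 in carcass. With 1 library per genotype and tissue the difference between tissues was not tested. The carcass libraries also differed in photoreceptor markers (1055 CPM in control against 75.4 in foxo RNAi), and the part of this in both ratios was not tested.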

How the results depend on the processing

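Between genotypes, the number of called genes stayed at 1 in thorax and 0 in carcass under each of the 8 alternatives. In gut it moved from 1 to 3 with total-count scaling and with log2(RPKM + 0.01), which added Pvf1 and Pvf2, and to 2 with log2(RPKM + 0.1), which added Pvf1. Of the log2 ratios of single genes under alternatives, 144 moved by less than the counting interval and 24 by more. The 144 include every ratio under a changed read minimum, a setting that cannot move a ratio. Total-count scaling moved the share of all calls that were higher from 41.2 to 65.9% in gut and from 25.0 to 41.8% in carcass. Between tissues the called count ranged from 4 to 5 of 7 for thorax against gut when 1 library was left out, from 2 to 5 for thorax against carcass and from 2 to 5 for gut against carcass. For gut against carcass it was 3 with total-count scaling, 2 with limma on log2(RPKM + 0.1) and 3 with log2(RPKM + 0.01). Total-count scaling moved the median of all genes by -0.67 log2 units for gut against carcass, by 0.49 for thorax against gut and by -0.18 for thorax against carcass, and the share of calls that were higher from 47.6 to 21.5%, from 51.5 to 69.0% and from 53.1 to 42.3%. Reversals of sign met only differences that passed no threshold. Pvr in thorax against gut became 0.0143 with total-count scaling and 0.03 with limma at both pseudocounts (0.0265 and 0.0273). Egfr in thorax against carcass became -0.15, -0.14 and -0.14 under the same settings, and ranged from -0.33 to 0.42 when 1 library was left out, below 0 without foxo RNAi thorax (-0.20) and without foxo RNAi carcass. In gut against carcass vn ranged from -0.26 without foxo RNAi gut to 1.64 without control gut, and Pvf2 from -0.0572 without foxo RNAi carcass to 1.65 without control carcass. Only the last 2 upper values passed the threshold (adjusted p by edgeR 0.0405 and 0.0487). The cause of these changes was not tested. No paired analysis was possible because each group holds 1 library, so replicate numbers pair nothing. The tissue fit does compare tissues within genotype through its genotype term, and without that term the called counts were 4, 5 and 5 with the same genes called. Depth limits Pvf3 in gut, with 20 reads in all.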
